A study of Mus musculus with 24 samples.

Results

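The genes of de novo lipogenesis and its regulators were followed across 6 genotypes of fasted mouse liver. They are Acaca, Acacb, Fasn, Acly, Scd1, Srebf1, Mlxipl, Thrsp and Pnpla3, the 9 of 54532 rows of the deposited count table that carry these gene names. The rows were taken by gene name, from a list chosen with earlier results of these data known. Each row is a protein-coding gene of the Ensembl annotation used with the GRCm38 (mm10) genome.

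De novo lipogenesis is the making of fatty acids from carbohydrate carbon in the cytosol. ATP-citrate lyase cuts citrate that has left the mitochondria into acetyl-CoA, acetyl-CoA carboxylase turns that into malonyl-CoA, fatty acid synthase builds palmitate from it and stearoyl-CoA desaturase adds a double bond. In the liver the genes of the pathway are switched on after a meal, mainly by the transcription factors Srebp-1c (encoded by Srebf1), which follows insulin, and Chrebp (encoded by Mlxipl), which follows glucose, and they are low in a fasted animal. Malonyl-CoA also inhibits Cpt1a, the gate for fatty acids into mitochondria, so that synthesis and oxidation are tied to each other.

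RNA-seq was done on whole livers of male C57BL/6J mice fasted for 24 h, with 4 livers per genotype. Rab30KO mice lack exon 4 of Rab30, a small GTPase of the Golgi, in the whole body, and Rab30 Ctrl mice are their wild-type littermates. Rab30L-/- and Cpt2L-/- mice were made with Cre under the albumin promoter, which acts in hepatocytes, so the other liver cells keep the gene. Rab30L-/- livers lack Rab30 and Cpt2L-/- livers lack Cpt2, carnitine palmitoyltransferase 2, which mitochondria need to oxidise long-chain fatty acids. DKO livers lack both genes in hepatocytes by the same Cre. The ff;ff mice are floxed at both genes, carry no Cre and are the controls of the DKO colony, so for Rab30L-/- and Cpt2L-/- a difference from ff;ff cannot be told apart from a difference in Cre or colony. By the methods the mice were young adults.

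The 24 libraries held 11801027 to 24497738 counts each, and no 2 libraries of a genotype agreed to within counting noise. Values per library are given as CPM, counts scaled to a common library total and adjusted by the trimmed mean of M values (TMM). The counts cover whole genes and so include exons outside the deletions, which limits Rab30 and Cpt2 as a check of the genotypes. No counts by exon were used, and the part of these exons in the levels of Rab30 and Cpt2 was not tested. Rab30 ranged from 10.4 to 26.6 CPM in Rab30L-/- and from 25.9 to 44.6 CPM in ff;ff, but from 101 to 231.5 CPM in DKO and from 122 to 188.5 CPM in Cpt2L-/-. It overlapped between Rab30KO (5.39 to 17.4 CPM) and Rab30 Ctrl (6.64 to 30.1 CPM). Cpt2 ranged from 95.3 to 167 CPM in Cpt2L-/- and from 96.1 to 120 CPM in DKO, against 128 to 139 CPM in ff;ff and 170 to 268 CPM in Rab30L-/-. By edgeR Cpt2 was lower in DKO than in Rab30L-/- (log2 fold change -1.07, adjusted p = 0.000449), was at -0.07 in Cpt2L-/- against ff;ff (adjusted p = 0.788), and Rab30 was at -1.1 in Rab30L-/- against ff;ff (adjusted p = 0.174). Whole-gene counts thus followed the deletions only in part, and each library is called by its label. The summed level of 7 hepatocyte markers was 48250 to 61020 CPM in Cpt2L-/- against 98580 to 132900 CPM in ff;ff, and 67250 to 84850 CPM in DKO against 78940 to 96610 CPM in Rab30L-/-, and most of this sum was Alb, the gene of albumin. Alb and Ttr were called lower by edgeR in the first comparison (log2 fold changes -1.41 and -0.86) and Ttr and Asgr1 in the second (-0.60 and -0.51), where Alb was at -0.37, Apob at -0.04 and Cyp2e1 at 0.31, none of them called. In bulk liver fewer cells of a type and less RNA per cell cannot be told apart.

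Promoter windows are shown for 4 genes that were lower in both comparisons of Cpt2 loss and for Acacb, which was higher in one of them, as described after them. Each window is the 250 bases before a RefSeq start site on GRCm38.p6, read 5′ to 3′ on the strand of the gene. Capitals mark CCAAT, the GC box GGGCGG, the E-box CACGTG and the sterol response element core TCACNCCAC, each on either strand.
Thrsp, chr7:97417551-97417800, minus strand: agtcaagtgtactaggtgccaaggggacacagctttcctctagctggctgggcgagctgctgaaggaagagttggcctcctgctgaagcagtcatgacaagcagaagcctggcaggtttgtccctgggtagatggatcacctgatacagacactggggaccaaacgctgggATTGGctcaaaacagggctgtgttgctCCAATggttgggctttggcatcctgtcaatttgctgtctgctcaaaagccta
Acly, chr11:100528001-100528250, minus strand: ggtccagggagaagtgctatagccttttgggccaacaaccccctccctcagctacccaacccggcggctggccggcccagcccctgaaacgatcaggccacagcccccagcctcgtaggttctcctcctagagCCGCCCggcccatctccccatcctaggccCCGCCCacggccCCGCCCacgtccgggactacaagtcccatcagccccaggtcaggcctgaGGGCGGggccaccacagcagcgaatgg
Srebf1, chr11:60222582-60222831, minus strand: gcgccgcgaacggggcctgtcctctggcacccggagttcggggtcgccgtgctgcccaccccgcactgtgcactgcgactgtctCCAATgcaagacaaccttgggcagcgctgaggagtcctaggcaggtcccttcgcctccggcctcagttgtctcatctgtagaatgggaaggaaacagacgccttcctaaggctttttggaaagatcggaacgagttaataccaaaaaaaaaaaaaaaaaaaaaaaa
Mlxipl, chr5:135089640-135089889, plus strand: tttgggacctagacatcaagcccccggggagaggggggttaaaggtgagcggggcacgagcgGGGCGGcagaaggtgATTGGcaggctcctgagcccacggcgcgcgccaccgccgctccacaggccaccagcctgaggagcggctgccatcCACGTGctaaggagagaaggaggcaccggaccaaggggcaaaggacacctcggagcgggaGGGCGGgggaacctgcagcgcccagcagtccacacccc
Acacb, chr5:114165268-114165517, plus strand: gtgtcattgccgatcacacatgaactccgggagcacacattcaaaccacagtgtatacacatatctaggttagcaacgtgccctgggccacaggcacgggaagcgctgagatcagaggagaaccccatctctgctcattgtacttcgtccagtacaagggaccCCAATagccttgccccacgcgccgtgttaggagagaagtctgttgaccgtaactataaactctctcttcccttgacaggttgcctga
The Thrsp window holds CCAAT on the opposite strand at -79 to -75 from the start site and on the gene's own strand at -52 to -48. The Acly window holds 4 GC boxes. The Srebf1 window, which ends where the gene of the deposited table begins, holds 1 CCAAT, and the gene has 2 further RefSeq start sites inside it. Counts over the whole gene cannot separate the transcripts of these start sites, so Srebp-1a and Srebp-1c are not told apart. The Mlxipl window holds the E-box, at -98 to -93, with 1 CCAAT and 2 GC boxes. The Acacb window lies inside the gene as the deposited table draws it and holds 1 CCAAT, while most of the Thrsp window also falls within that table's Thrsp gene.

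Over the 11 RefSeq start sites of 8 of the 9 genes, CCAAT was in 7 windows, against 33.8% of 32851 windows of all genes. The GC box was in 5 of the 11, against 32.7% of all windows. The E-box was in 1 of the 11, against 6.02%, and the sterol response element core was in 1 of the 11, the second Mlxipl start site, against 1.05%. These are matches of letters and not tested sites.

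Levels differed widely between the genes. On the deposited FPKM scale, which divides counts by gene length and library size, Scd1 averaged 176 over the 24 libraries and was the most abundant of the 9 genes. Mlxipl (24.5 FPKM) and Acly (18.9 FPKM) followed, then Thrsp (11.01 FPKM), Srebf1 (10.2 FPKM), Acacb (10.04 FPKM) and Fasn (7.43 FPKM). Acaca averaged 1.90 FPKM. Pnpla3, a lipase-like protein of lipid droplets, averaged 0.124 FPKM and had 0 to 9 counts per library, too few to enter any test.

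**Figure D1:**
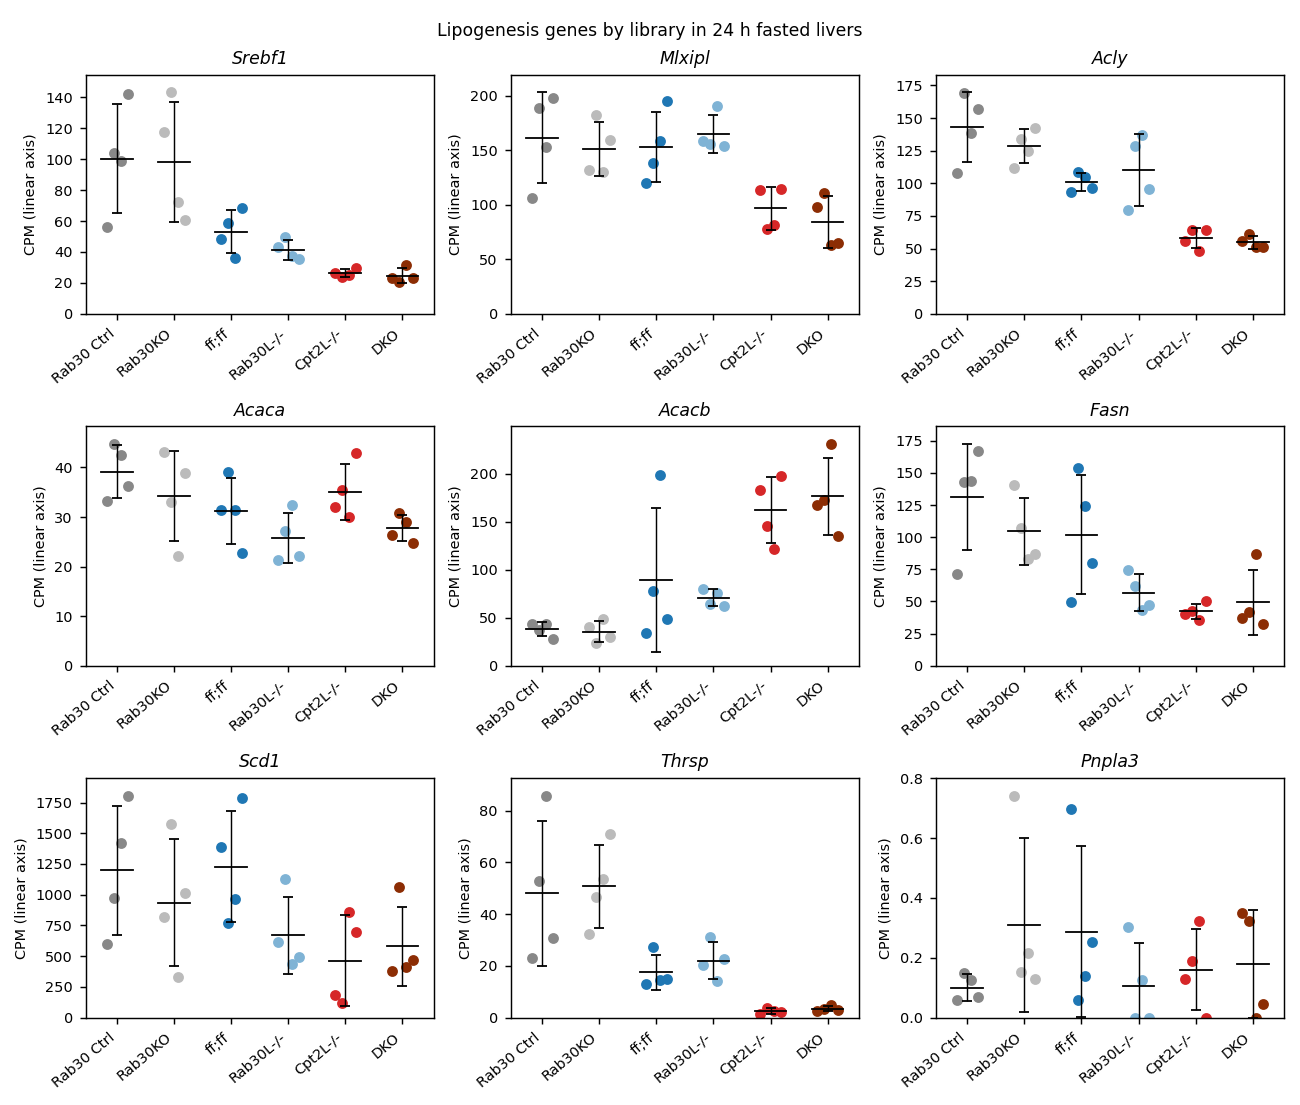
Level of each lipogenesis gene in CPM (linear axes from 0) in the 24 libraries, by genotype. Points are livers, horizontal bars the mean of 4 and error bars the SD. Srebf1, Mlxipl, Acly and Thrsp are lowest in Cpt2L-/- and DKO, Acacb is highest there apart from ff;ff replicate 3, and Scd1 and Fasn overlap between most genotypes.

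Loss of Cpt2 was compared on both Rab30 backgrounds: Cpt2L-/- with ff;ff, and DKO with Rab30L-/-. These comparisons share no library. By the labels ff;ff are littermates of DKO only, so in both a difference of colony cannot be told apart from loss of Cpt2. Of the 8 genes tested, 5 were lower in Cpt2L-/- than in ff;ff and none was higher, and 4 were lower and 1 higher in DKO than in Rab30L-/-. A gene is called lower or higher where edgeR's adjusted p was under 0.05 and the change at least 1.2-fold. By the same rule 11.9% of 13270 genes were lower and 11.9% higher in Cpt2L-/- than in ff;ff, and 15.8% of 13292 genes were lower and 14.9% higher in DKO than in Rab30L-/-. The median log2 fold change of the 8 genes was -0.91 in the first comparison and -0.48 in the second, beside medians of 0 and -0.01 over all genes tested. Thrsp, Srebf1, Mlxipl and Acly were lower in both comparisons, as were 870 of 12970 genes tested in both. Overlap of groups, given below for single genes, was not counted over all genes, so how common its absence is remains unknown.

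Thrsp, the gene of Spot14, a small protein that promotes hepatic lipogenesis, fell furthest. It was at 12.8, 27.4, 14.4 and 15.1 CPM in the 4 ff;ff livers and at 1.41, 3.90, 2.65 and 2.25 CPM in the 4 Cpt2L-/- livers. It was at 20.3, 31.2, 14.0 and 22.6 CPM in Rab30L-/- and at 2.58, 3.42, 5.01 and 3.05 CPM in DKO. The highest Thrsp value of any liver without Cpt2 was thus well below the lowest of any liver of the other 4 genotypes. Thrsp was 6.89-fold lower in Cpt2L-/- than in ff;ff (log2 fold change -2.78, SE 0.32, adjusted p = 6.91e-05, edgeR) and 6.24-fold lower in DKO than in Rab30L-/- (-2.64, SE 0.28, adjusted p = 9.52e-05, edgeR). Of the genes tested, 0.844% and 0.797% had a lower log2 fold change than Thrsp in the respective comparisons.

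Of the transcription factors, Srebf1 was at 48.6, 58.8, 36.0 and 68.6 CPM in ff;ff and at 26.5, 24.0, 25.1 and 29.6 CPM in Cpt2L-/-. It was at 43.0, 50.0, 37.2 and 35.5 CPM in Rab30L-/- and at 23.0, 20.8, 31.7 and 22.9 CPM in DKO. All livers without Cpt2 were below all livers of their comparison group. The fall was 2.03-fold in Cpt2L-/- (log2 fold change -1.02, SE 0.19, adjusted p = 0.00142, edgeR) and 1.68-fold in DKO (-0.75, SE 0.16, adjusted p = 0.00529, edgeR). Srebf1 lies opposite Rai1, whose mean count was 276 against 873 for Srebf1, and since it is not stated whether reads were counted by strand, a part of either count may belong to the other.

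Mlxipl was at 120, 138, 158 and 195 CPM in ff;ff and at 113, 77.9, 81.3 and 114 CPM in Cpt2L-/-. It was at 159, 155, 190.5 and 154 CPM in Rab30L-/- and at 97.8, 111, 63.3 and 64.9 CPM in DKO. The groups did not overlap in either comparison, though the highest Cpt2L-/- livers came close to the lowest ff;ff liver. Mlxipl was 1.59-fold lower in Cpt2L-/- (log2 fold change -0.67, SE 0.19, adjusted p = 0.0189, edgeR) and 1.95-fold lower in DKO (-0.97, SE 0.19, adjusted p = 0.00285, edgeR). The call against ff;ff was lost without ff;ff replicate 4 (adjusted p = 0.0659), without Cpt2L-/- replicate 2 (adjusted p = 0.0599) or without Cpt2L-/- replicate 3 (adjusted p = 0.0542).

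Acly, which makes the cytosolic acetyl-CoA, was at 93.6, 108, 105 and 96.4 CPM in ff;ff against 55.7, 64.3, 48.0 and 64.4 CPM in Cpt2L-/-. On the background without Rab30 it was at 79.2, 129, 137 and 95.8 CPM in Rab30L-/- against 56.0, 61.2, 50.9 and 50.9 CPM in DKO. Neither pair of groups overlapped. Acly was 1.75-fold lower in Cpt2L-/- (log2 fold change -0.81, SE 0.14, adjusted p = 0.00124, edgeR) and 2.01-fold lower in DKO (-1.0, SE 0.17, adjusted p = 0.00116, edgeR).

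Neither acetyl-CoA carboxylase was called lower in these comparisons. Acaca encodes the cytosolic enzyme whose malonyl-CoA feeds synthesis, and Acacb the enzyme at the mitochondrial surface whose malonyl-CoA restrains Cpt1a. Acaca was at 31.2 ± 6.7 CPM in ff;ff and 35.1 ± 5.7 CPM in Cpt2L-/- (SD, n = 4), a log2 fold change of 0.16 (SE 0.18, adjusted p = 0.571, edgeR). It was at 25.8 ± 5.1 CPM in Rab30L-/- and 27.7 ± 2.7 CPM in DKO (SD, n = 4), a log2 fold change of 0.11 (SE 0.15, adjusted p = 0.612, edgeR). Its groups overlapped in both comparisons. Acaca lies opposite Gm11437, whose mean count was 61 against 504 for Acaca.

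Acacb was at 80.5, 64.8, 75.9 and 62.5 CPM in Rab30L-/- and at 168, 172.5, 231 and 135 CPM in DKO, with no overlap. It was 2.49-fold higher in DKO (log2 fold change 1.32, SE 0.17, adjusted p = 0.000244, edgeR), above 97.1% of all genes tested in that comparison. In Cpt2L-/- it was at 183, 146, 122 and 198 CPM, but the ff;ff livers were at 33.9, 77.6, 199 and 48.4 CPM, so that ff;ff replicate 3 alone lay above every Cpt2L-/- liver. The log2 fold change against ff;ff was 0.84 (SE 0.53, adjusted p = 0.304, edgeR), and 1.59 without ff;ff replicate 3 (adjusted p = 0.00155). Limma-voom with sample weights put it at 1.26 (adjusted p = 0.00639). Per length, the ratio of Acacb to Acaca in FPKM was 1.39 to 2.32 in Rab30 Ctrl, 1.26 to 3.87 in Rab30KO, 1.92 to 11.2 in ff;ff and 4.15 to 6.68 in Rab30L-/-. It was 7.21 to 10.1 in Cpt2L-/- and 9.63 to 14.1 in DKO, a ratio looked at after the values of both genes were seen. The only liver with Cpt2 that reached the ratios of livers without it was ff;ff replicate 3.

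Fasn and Scd1, the synthase and the desaturase, varied widely among livers of a genotype. Fasn was at 49.6, 154, 124 and 79.5 CPM in ff;ff and at 40.3, 42.9, 35.5 and 50.1 CPM in Cpt2L-/-, where the groups overlapped by 1 liver each. It was at 74.3, 62.2, 43.6 and 46.9 CPM in Rab30L-/- and at 37.0, 41.4, 86.7 and 32.5 CPM in DKO. Fasn was 2.43-fold lower in Cpt2L-/- than in ff;ff (log2 fold change -1.28, SE 0.30, adjusted p = 0.00873, edgeR). Between DKO and Rab30L-/- its log2 fold change was -0.20 (SE 0.33, adjusted p = 0.683, edgeR). That value rested on DKO replicate 3, the highest liver, and without it the change was -0.61 (adjusted p = 0.0442).

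Scd1 was at 1388, 769, 965 and 1783 CPM in ff;ff and at 181, 115, 863 and 693 CPM in Cpt2L-/-. The Cpt2L-/- livers fell into a pair at low and a pair at higher levels, and the latter overlapped ff;ff. The log2 fold change was -1.42 (SE 0.66, adjusted p = 0.167, edgeR), and limma-voom with sample weights gave -1.78 (adjusted p = 0.0358). Between DKO, at 382, 1061, 414 and 465 CPM, and Rab30L-/-, at 619, 1124, 438 and 493 CPM, it was -0.20 (SE 0.40, adjusted p = 0.739, edgeR). That value was -0.66 without DKO replicate 2 (adjusted p = 0.138) and 0.17 without Rab30L-/- replicate 2.

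The DKO livers were also compared with ff;ff, their littermate controls, which differ from them at both genes and in carrying no Cre. The effect of Cre cannot be told apart here, and the comparison shares libraries with those above. Srebf1 was 2.16-fold, Mlxipl 1.82-fold, Acly 1.85-fold and Thrsp 5.0-fold lower in DKO (adjusted p = 0.00342, 0.0158, 0.000807 and 0.000347, edgeR), all without overlap of the groups. By the same rule 8.24% of 13389 genes were lower and 7.87% higher. None of the 8 genes was higher by edgeR. At an unadjusted p under 0.05 there were 6, none of them Acacb, beside 29.7% of all genes. Mlxipl lost its call without ff;ff replicate 4 (adjusted p = 0.0585). Acacb had a log2 fold change of 0.96 (adjusted p = 0.268), 1.71 without ff;ff replicate 3 (adjusted p = 0.00353) and 1.29 by limma-voom (adjusted p = 0.00792). Fasn, at -1.05 (SE 0.41, adjusted p = 0.122), was past the threshold without DKO replicate 3 (-1.47, adjusted p = 0.0221) or without ff;ff replicate 1 (-1.28, adjusted p = 0.048). Scd1, at -1.08 (SE 0.36, adjusted p = 0.0649), was past it without DKO replicate 2 (-1.55, adjusted p = 0.00429) or without ff;ff replicate 2 (-1.25, adjusted p = 0.0491).

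**Figure D2:**
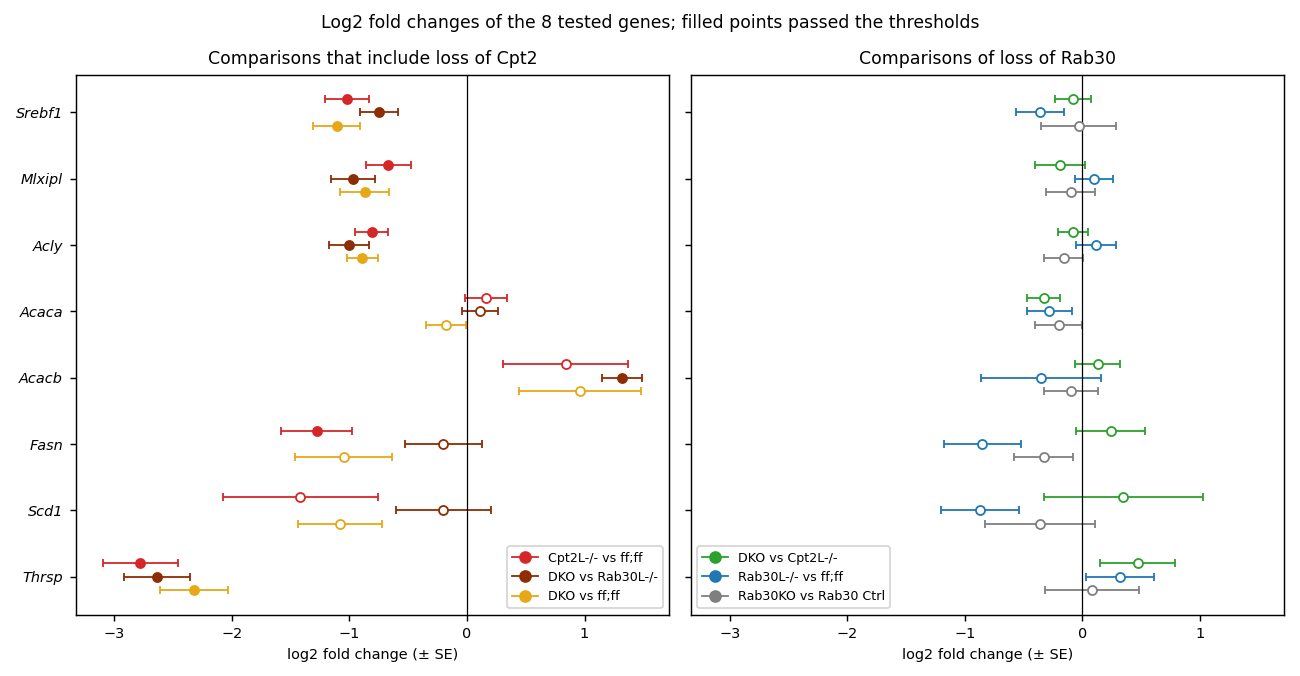
Log2 fold changes with SE from edgeR for the 8 tested genes, in comparisons that include loss of Cpt2 (left) and in comparisons of loss of Rab30 (right). Filled points passed the thresholds. Thrsp, Srebf1, Mlxipl and Acly are filled in all 3 comparisons on the left, and no point is filled on the right.

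Markers of other cell types moved with the same comparisons. The summed level of 7 adipocyte markers was 225 to 378 CPM in Cpt2L-/- and 151 to 283 CPM in DKO, against 21.0 to 91.2 CPM in ff;ff and 15.0 to 31.5 CPM in Rab30L-/-. Plin4, which coats lipid droplets, and Fabp4, a fatty acid binding protein, made up nearly all of it, were the only 2 of the 7 with enough counts to test and were higher in both comparisons. The defining adipocyte genes were near 0: Adipoq reached at most 0.065 CPM in DKO and was at 0 in all Cpt2L-/- livers, and Lep and Retn were at 0 in both genotypes. In ff;ff Adipoq reached 0.828 CPM and Lep 0.177 CPM, and in Rab30L-/- Adipoq reached 0.042 CPM. Plin1 and Cfd were also low but not at 0: Plin1 was at 0.126 to 0.453 CPM in Cpt2L-/- and 0.065 to 0.387 CPM in DKO, against 0 to 0.296 CPM in ff;ff and 0 in Rab30L-/-, and Cfd at 0.0624 to 0.453 CPM in Cpt2L-/- and 0 to 0.209 CPM in DKO, against 0 to 2.31 CPM in ff;ff and 0 in Rab30L-/-. The summed level of 6 Kupffer cell markers was 105 to 159 CPM in Cpt2L-/- and 109 to 129 CPM in DKO, against 129 to 244 CPM in ff;ff and 177 to 530 CPM in Rab30L-/-, and edgeR called 3 and 5 of the 6 lower. Over all genes tested 11.9% and 15.8% were lower, and 11.9% and 14.9% higher. The part of the lower hepatocyte and Kupffer cell markers in the changes of the lipogenesis genes was not tested.

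Loss of Rab30 was compared in 3 settings: DKO with Cpt2L-/-, Rab30L-/- with ff;ff, and Rab30KO with Rab30 Ctrl. None of the 8 genes passed the thresholds in any of them by edgeR, DESeq2 or limma-voom. At an unadjusted p under 0.05 there was 1 gene in the first (Acaca), 2 in the second (Fasn and Scd1) and 0 in the third, beside 21.7%, 11.2% and 2.21% of all genes. Past the thresholds edgeR called 2.71%, 0.479% and 0.022% of all genes in either direction. The median log2 fold change of the 8 genes was 0.03, -0.32 and -0.13, beside 0 over all genes in each comparison. By the labels only Rab30KO and Rab30 Ctrl are littermates here. In the other settings a difference of colony cannot be told apart from loss of Rab30.

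The intervals of these differences show what size the data leave room for. For DKO against Cpt2L-/-, the approximate 95% interval of the fold was 0.761 to 1.18 for Acly, 0.735 to 1.21 for Srebf1 and 0.616 to 1.25 for Mlxipl. For Fasn it was 0.72 to 1.93, and for Thrsp 0.803 to 2.38. Scd1 was the least certain, with 0.399 to 4.07. Acaca had a log2 fold change of -0.33 in that comparison (SE 0.14, adjusted p = 0.195, edgeR).

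For Rab30L-/- against ff;ff, Fasn had a log2 fold change of -0.85 (SE 0.33, adjusted p = 0.368, edgeR) and Scd1 of -0.87 (SE 0.33, adjusted p = 0.35, edgeR). Srebf1 was at -0.36 (SE 0.20, adjusted p = 0.52, edgeR), while Acly (0.12), Mlxipl (0.10) and Thrsp (0.32) lay slightly above 0. For Rab30KO against Rab30 Ctrl the 8 log2 fold changes ran from -0.36 (Scd1) to 0.08 (Thrsp). Srebf1 was at 118, 143, 72.1 and 60.5 CPM in Rab30KO and at 56.1, 104, 98.6 and 142 CPM in Rab30 Ctrl, groups that overlapped over nearly their whole range.

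Whether loss of Rab30 acted differently with and without Cpt2 was tested as an interaction over 16 livers, taking the difference between DKO and Cpt2L-/- minus that between Rab30L-/- and ff;ff. None of the 8 genes passed the thresholds by edgeR, DESeq2 or limma-voom, against 4.06% of 14063 genes in either direction by edgeR. At an unadjusted p under 0.05 there was 1, beside 21.7% of all genes. That gene was Fasn (1.09 on the log2 scale, SE 0.49, adjusted p = 0.208). Scd1 had the larger value, 1.23, with an SE of 0.82 (adjusted p = 0.412). Without DKO replicate 3 the value of Fasn was 0.67, and without DKO replicate 2 that of Scd1 was 0.76.

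Between the control colonies, ff;ff and Rab30 Ctrl, none of the 8 genes passed the thresholds by edgeR, beside 0.949% of 13587 genes in either direction. At an unadjusted p under 0.05 there were 4 of the 8, beside 13.2% of all genes. Thrsp was at 23.0, 52.9, 85.7 and 30.9 CPM in Rab30 Ctrl, and its log2 fold change in ff;ff was -1.43 (SE 0.41, adjusted p = 0.149, edgeR). DESeq2 called it at the same size (-1.42, adjusted p = 0.00929), the 1 gene it called, and limma-voom called none. Srebf1 had a log2 fold change of -0.89 (SE 0.27, adjusted p = 0.159, edgeR) and passed without Rab30 Ctrl replicate 1 (-1.09, adjusted p = 0.0498). Acly had a log2 fold change of -0.48 and Acacb a log2 fold change of 1.26 (SE 0.50, adjusted p = 0.309, edgeR), or 0.52 without ff;ff replicate 3. Of 6 Kupffer cell markers edgeR called 3 lower in ff;ff, with a summed level of 129 to 244 CPM against 305 to 502.5 CPM in Rab30 Ctrl. None of 5 sinusoidal endothelial markers was called by edgeR, with 3 at an unadjusted p under 0.05, and their summed level was 149 to 214 CPM in ff;ff and 222 to 291 CPM in Rab30 Ctrl. The part of these markers in the values above was not tested.

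Ordered by mean CPM, Srebf1 ran from Rab30 Ctrl (100) and Rab30KO (98.4) through ff;ff (53.0) and Rab30L-/- (41.4) to Cpt2L-/- (26.3) and DKO (24.6), and the one pair of neighbours whose ranges did not overlap was Rab30L-/- and Cpt2L-/-. Acly had the same kind of order, from 143 CPM in Rab30 Ctrl to 54.8 CPM in DKO, with its one gap between ff;ff (101) and Cpt2L-/- (58.1). For Thrsp the gap lay between ff;ff (17.4) and DKO (3.52), and for Mlxipl between Rab30KO (151) and Cpt2L-/- (96.7). Acacb had its gap elsewhere, between Rab30L-/- (70.9) and Rab30 Ctrl (38.0). Fasn, Scd1 and Acaca had no neighbours without overlap.

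The pathway around these genes was followed by a list of 40 genes of substrate supply, of chain elongation, desaturation and use, and of regulators, of which 39 were tested. In Cpt2L-/- against ff;ff, 8 were higher and 8 lower, beside 11.9% higher and 11.9% lower of all genes. In DKO against Rab30L-/- 10 were higher and 9 lower, beside 14.9% and 15.8% of all genes. The median log2 fold change of the 39 genes was 0.05 and -0.04. Past the thresholds in the same direction in both comparisons were 5 that were higher and 6 that were lower, beside 814 and 870 of all 12970 genes tested in both.

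Among the genes of substrate supply, Khk, the fructokinase, was 3.11-fold lower in Cpt2L-/- than in ff;ff and 2.38-fold lower in DKO than in Rab30L-/- (adjusted p = 2.74e-05 and 7.11e-05, edgeR). Acss2, which makes acetyl-CoA from acetate, was 1.51-fold and 1.61-fold lower (adjusted p = 0.0165 and 0.00415), the former call being lost without Cpt2L-/- replicate 4 (adjusted p = 0.0594). Me1 and Pgd, whose enzymes yield NADPH, were higher. Me1, the cytosolic malic enzyme, was 2.37-fold and 3.91-fold higher (adjusted p = 0.000573 and 0.000129), and Pgd, of the pentose phosphate pathway, 4.14-fold and 2.25-fold higher (adjusted p = 1.43e-06 and 0.00229). None of the groups of Khk, Acss2, Me1 and Pgd overlapped in these comparisons.

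Elovl6, which extends palmitate to stearate, was 2.55-fold and 2.11-fold lower (adjusted p = 6.96e-05 and 0.043). Elovl5, which extends polyunsaturated chains, was 3.13-fold and 1.72-fold higher (adjusted p = 8.55e-05 and 0.0485), and Acsl5, an acyl-CoA synthetase, was 1.5-fold and 1.56-fold higher (adjusted p = 0.00626 and 0.0174). The calls in DKO against Rab30L-/- were weak for the elongases: omitting single libraries ended that of Elovl5 in 7 and that of Elovl6 in 4 of 8 fits. Acsl5 lost it without Rab30L-/- replicate 2 (adjusted p = 0.0539) or replicate 4 (adjusted p = 0.0567).

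Of the regulators, Mid1ip1, the partner of Thrsp that activates acetyl-CoA carboxylase, was 1.94-fold and 2.91-fold lower (adjusted p = 0.0206 and 0.00068, edgeR). Mlx, the partner of Mlxipl, was 1.33-fold and 1.35-fold lower (adjusted p = 0.0488 and 0.0332), and Usf1, a factor of the Fasn promoter, 1.53-fold and 1.88-fold lower (adjusted p = 0.0178 and 0.000511). Prkaa2, a catalytic subunit of AMP-activated kinase, which inactivates acetyl-CoA carboxylase, was 1.55-fold and 1.60-fold higher (adjusted p = 0.0378 and 0.00541). When single libraries were omitted, the call against ff;ff ended in 7 of 8 fits for Mlx, in 6 for Prkaa2, and in 3 each for Mid1ip1 and Usf1, and the call against Rab30L-/- in 6 for Mlx. Mid1ip1 had a log2 fold change of -1.26 in ff;ff against Rab30 Ctrl (adjusted p = 0.0877, edgeR), and was called lower there by DESeq2 (adjusted p = 0.0073), limma-voom (adjusted p = 0.0344), with no filter on low counts (adjusted p = 0.0104) and over all 24 libraries (adjusted p = 0.0158). Cpt1a, the target of malonyl-CoA, was 1.65-fold higher in Cpt2L-/- than in ff;ff (adjusted p = 0.00911) and had a log2 fold change of 0.00 in DKO against Rab30L-/- (SE 0.18). Mlycd, which breaks down malonyl-CoA, had log2 fold changes of 0.08 and 0.01 (SE 0.19 and 0.12).

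**Figure D3:**
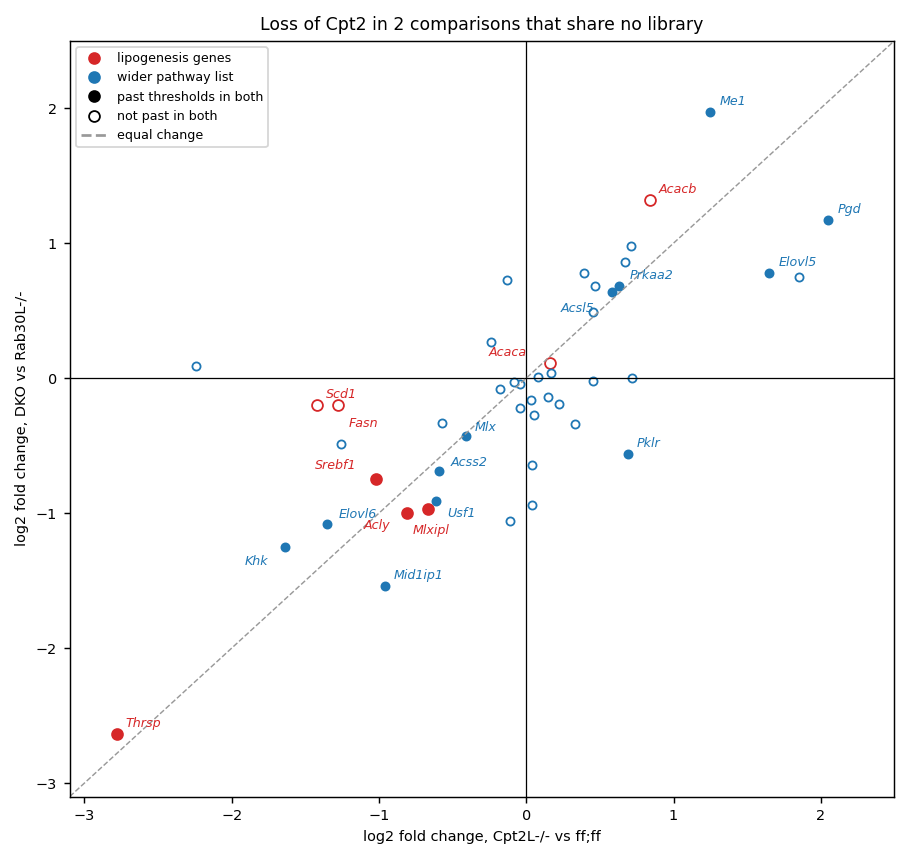
Log2 fold change in Cpt2L-/- against ff;ff (x axis) and in DKO against Rab30L-/- (y axis), comparisons that share no library, for the lipogenesis genes (red) and the wider pathway list (blue). Filled points passed the thresholds in both, and the dashed line marks equal change. Thrsp, Srebf1, Mlxipl and Acly lie near the line at the lower left with Khk and Elovl6, Pgd, Me1 and Elovl5 lie at the upper right, and Pklr passed with opposite signs.

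The change of Pklr, the liver pyruvate kinase, with loss of Cpt2 differed between the Rab30 backgrounds. Pklr was at 21.8 to 32.6 CPM in ff;ff, 37.0 to 55.5 CPM in Cpt2L-/-, 32.9 to 46.0 CPM in Rab30L-/- and 21.5 to 29.8 CPM in DKO. It was higher in Cpt2L-/- than in ff;ff (log2 fold change 0.69, adjusted p = 0.0125, edgeR, and 0.054 without Cpt2L-/- replicate 4) but lower in DKO than in Rab30L-/- (-0.56, adjusted p = 0.0119), and the interaction was -1.24 (SE 0.23, adjusted p = 0.00558). Pklr also differed between the control colonies, with 49.8 to 75.5 CPM in Rab30 Ctrl and a log2 fold change of -1.12 in ff;ff (adjusted p = 0.0237, edgeR), a call that ended in 4 of 8 fits with a single library omitted. In the interaction DESeq2 and limma-voom, though not the main edgeR fit, also called Pgd (adjusted p = 0.031 and 0.016), Nr1h2 (adjusted p = 0.0332 and 0.0181) and Stk11 (adjusted p = 0.0404 and 0.0246), all below 0 like Pklr. EdgeR called Pgd with no filter on low counts (adjusted p = 0.0379) or without DKO replicate 4 (adjusted p = 0.0219). It also called Me1 without Rab30L-/- replicate 1 (0.98, adjusted p = 0.0495) and Elovl5 without Rab30L-/- replicate 4 (-1.09, adjusted p = 0.0469). A difference of colony cannot be told apart from the genotypes in these interactions. DKO livers were lower than Cpt2L-/- livers in Pklr (-0.79, adjusted p = 0.0249), Nr1h2 (-0.53, adjusted p = 0.0464), the nuclear receptor Lxrβ, and Stk11 (-0.51, adjusted p = 0.0356), the kinase Lkb1. Leaving out 1 library ended that call in 3 of 8 fits for Pklr, 6 of 8 for Nr1h2 and 7 of 8 for Stk11, and all 3 calls ended in the fit over all 24 libraries (adjusted p = 0.0625, 0.162 and 0.199). Pgd had a log2 fold change of -0.76 in this comparison (adjusted p = 0.0668, edgeR) and was called by DESeq2 (adjusted p = 0.0116), limma-voom (adjusted p = 0.0103), with no filter on low counts (adjusted p = 0.018) and over all 24 libraries (adjusted p = 0.0484). Khk was called higher in DKO than in Cpt2L-/- by DESeq2 (0.43, adjusted p = 0.0275) and limma-voom (0.42, adjusted p = 0.0368), Acsl5 higher by limma-voom (0.40, adjusted p = 0.0475) and Elovl5 lower by DESeq2 (-0.36, adjusted p = 0.0393). None of the 39 genes passed in Rab30L-/- against ff;ff or in Rab30KO against Rab30 Ctrl by edgeR. At an unadjusted p under 0.05 there were 4 and 0, beside 11.2% and 2.21% of all genes.

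How far the targets followed their regulators from liver to liver was examined within genotypes, as the slope of each gene on the log2 CPM of Srebf1 or of Mlxipl after allowing for the genotype, over 24 livers. No gene of the 7 others tested passed an adjusted p of 0.05 on either regulator by edgeR, DESeq2 or limma-voom, where edgeR called 0.00686% of 14583 genes for Srebf1 and 0.103% for Mlxipl. At an unadjusted p under 0.05 there was 1 for each, beside 15% and 15.3% of all genes. These were Fasn on Srebf1, with a slope of 0.69 (SE 0.24, adjusted p = 0.196), and Acly on Mlxipl, with a slope of 0.39 (SE 0.15, adjusted p = 0.23). Without ff;ff replicate 3 the slope of Fasn on Srebf1 was 0.91 (adjusted p = 0.0395), and in the 8 Cpt2L-/- and DKO livers alone it was 1.98 (adjusted p = 0.254). Thrsp had slopes of 0.12 on Srebf1 (SE 0.34) and -0.28 on Mlxipl (SE 0.46).

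**Figure D4:**
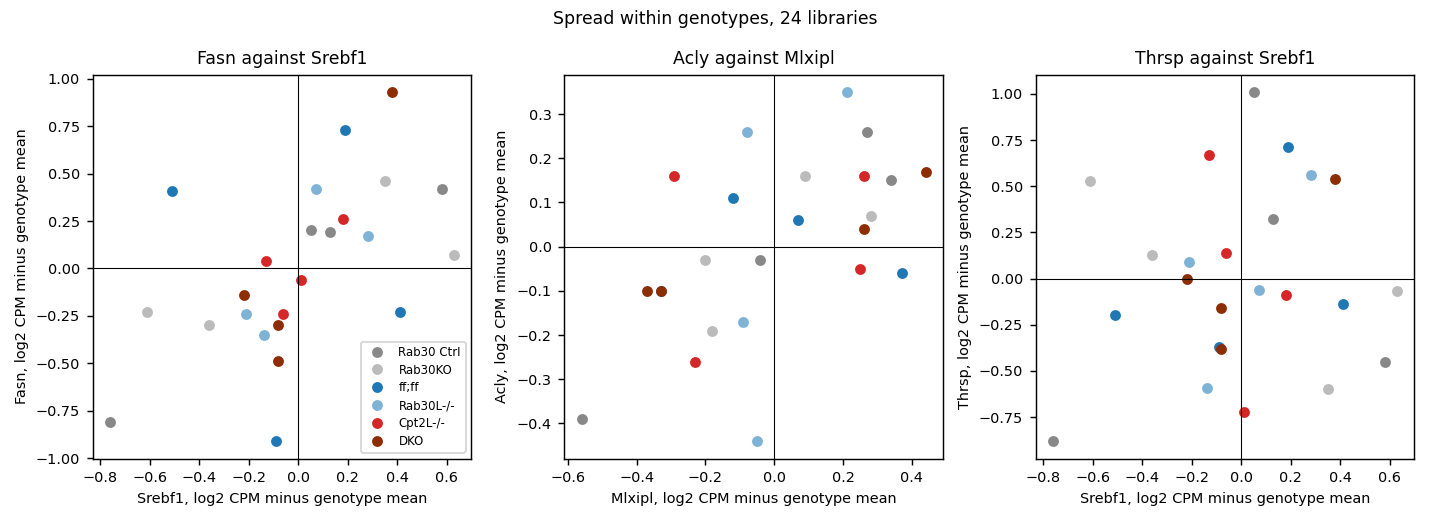
Log2 CPM of each liver less the mean of its genotype, for Fasn against Srebf1, Acly against Mlxipl and Thrsp against Srebf1 in 24 libraries, coloured by genotype. The points of the left and middle panels rise to the right, with Pearson correlations of 0.54 and 0.55, and those of the right panel do not, at 0.11.

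As a description over the 24 livers, with each genotype's mean removed, the closest pairs among the 8 genes were Acly with Mlxipl (Pearson r = 0.55, Spearman rho = 0.55), Fasn with Srebf1 (0.54, 0.61) and Acaca with Acly (0.53, 0.58). Acacb and Scd1 were the most opposed (-0.36, -0.38). The same livers, library sizes and scaling enter every pair. Of 9580 genes with a mean of at least 5 CPM, Fasn was nearest to Srebf2 (Pearson r = 0.87), which encodes the regulator of cholesterol synthesis, then to Ccdc120 (0.87), Sh2d3c (0.86), Ncdn (0.83) and Ticam1 (0.81). Srebf1 was nearest to Slc6a8 (0.85), Tradd (0.85), Nudt22 (0.83), Angel1 (0.82) and Slc25a39 (0.81). The genes nearest to Mlxipl were Rab11fip4 (0.86), Ctdsp1 (0.86), Slc6a6 (0.83), Setd1a (0.82) and Dbp (0.81), a transcription factor of the circadian clock.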

How the data were processed

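RNA of 24 h fasted livers, 4 per genotype, was made into libraries and sequenced by a company for the authors. The submitters' notes name HISAT2, DESeq2 and the GRCm38 (mm10) build. The counting tool, the annotation version and the use of strand are not given in the sources used here. The authors deposited raw read counts per gene and FPKM values, which for 9001 genes with a mean of at least 100 counts were the counts divided by gene length and 1 size per library, to within 0.1% in 100% of values. FPKM was used only to compare levels between genes. Deposited tables of the authors' own comparisons and of their normalized counts were not used.

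Groups came from the labels, and each column of the count table matched 1 library. The members and gene lists were chosen with earlier results of these data known. Fits used the 8 libraries of a comparison, 16 for the interaction and 24 for the slopes, in edgeR 4.0.16 (filterByExpr, TMM, robust quasi-likelihood F test) in R 4.3.3. P-values were adjusted over all genes tested by Benjamini-Hochberg. A gene passed with an adjusted p under 0.05 and a change of at least 1.2-fold, with no fold threshold for slopes. Intervals of folds used the SE and a t distribution with 6 degrees of freedom. Log2 CPM used a prior count of 2. The rule for named genes took all 9 members, then those of the wider list past the thresholds in the same direction in both comparisons of Cpt2 loss or in a comparison of Rab30 loss or the interaction, and always Cpt1a and Mlycd. A gene of the wider list is not reported here and was left out of its counts. Alternatives were DESeq2 1.42.0 (Wald test, or size factors only), limma-voom 3.58.1 with sample weights, other filters on low counts, 1 fit over all 24 libraries, no fold threshold, subsets of libraries for the slopes, and leaving out each library in turn. Fits were tested on simulated data. Promoters came from RefSeq, where 8 of the 9 genes matched and Scd1 did not. Marker lists covered hepatocytes, adipocytes, Kupffer, stellate, sinusoidal endothelial, bile duct and pancreas cells. Figures were drawn with matplotlib. Library totals were 11801027 to 24497738 counts. Replicates differed by more than counting error, so the spread between livers limits the precision of the tested genes, and Pnpla3 had too few counts to test. The methods give the livers as biological replicates, and the labels name no batch.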

Additional observations from a re-analysis of the deposited data

Results flagged for a closer look

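In 4 of 48 groups of 4 livers (the 8 tested genes in 6 genotypes) 1 liver stood far from the other 3, where chance gives about 1 in 20. Fasn was at 86.7 CPM in DKO replicate 3, Scd1 at 1061 CPM in DKO replicate 2, Mlxipl at 190.5 CPM in Rab30L-/- replicate 3 and Thrsp at 27.4 CPM in ff;ff replicate 2. In each case the far liver was the highest of its genotype. Leaving out DKO replicate 3 moved the log2 fold change of Fasn in DKO against Rab30L-/- from -0.20 to -0.61, and leaving out DKO replicate 2 moved that of Scd1 in DKO against ff;ff from -1.08 to -1.55.

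Loss of Rab30 went with different changes on the 2 Cpt2 backgrounds for Pklr, with an interaction of -1.24 (adjusted p = 0.00558, edgeR). Pklr was lower in 4 of 4 DKO livers than in any Cpt2L-/- liver, while between Rab30L-/- and ff;ff its log2 fold change was 0.46 and not called (adjusted p = 0.329, edgeR).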

How the results depend on the processing

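No paired analysis was possible because the labels give the genotypes no shared replicate numbers. Among the lipogenesis genes, Thrsp, Srebf1 and Acly kept direction and call in all 3 comparisons that include loss of Cpt2, as did Acacb and Mlxipl in DKO against Rab30L-/- and Fasn in Cpt2L-/- against ff;ff, under every alternative run. The number of the 8 genes past the thresholds was 5, 5 and 4 in Cpt2L-/- against ff;ff, DKO against Rab30L-/- and DKO against ff;ff, and stayed within 1.5 times of that under each alternative. In ff;ff against Rab30 Ctrl it was 0, and 1 (Thrsp) by the DESeq2 Wald test or in a fit over all 24 libraries (adjusted p = 0.0416). Leaving out 1 library gave 0 to 1 there, the 1 being Srebf1 without Rab30 Ctrl replicate 1, and 0 to 1 for slopes on Srebf1, the 1 being Fasn without ff;ff replicate 3. DKO against ff;ff also called Fasn by DESeq2 (adjusted p = 0.0219), limma-voom (adjusted p = 0.00502) or the fit over 24 libraries (adjusted p = 0.0317), and Scd1 by DESeq2 (adjusted p = 0.0101). No called value changed sign. Among values of these genes that were not called, 40 changed sign or came to 0 on leaving out 1 library, and 12 did so under other alternatives. The cause of these changes was not tested.

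Counts over all genes moved more. In DKO against ff;ff 2157 genes passed and 3742 by limma-voom. In DKO against Cpt2L-/- the count was 360, against 1032 by DESeq2, 1535 by limma-voom, 705 with no filter, 114 over 24 libraries and 57 to 445 leaving out 1. In Rab30L-/- against ff;ff it was 64, against 298 by DESeq2, 239 by limma-voom, 240 with no filter and 25 with at least 10 counts in every library, and 23 to 93 leaving out 1. In Rab30KO against Rab30 Ctrl it was 3, against 0 to 10 under all alternatives, and in ff;ff against Rab30 Ctrl 129, against 53 to 564. For the interaction it was 571, against 1080 by DESeq2 and 1294 by limma-voom and 300 to 679 leaving out 1. For slopes on Srebf1 it was 1, against 272 by DESeq2, 1268 by limma-voom and 513 without ff;ff replicate 3, and for slopes on Mlxipl 15, against 195 by DESeq2, 42 in the 16 libraries with Cpt2 intact, 73 without Rab30KO replicate 4 and 1 without Rab30 Ctrl replicate 4. Depth limits Pnpla3 (0 to 9 counts) and leaves Thrsp at as few as 22 counts in a library.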

Other observations

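Of 6 stellate cell markers 0 passed the thresholds in Cpt2L-/- against ff;ff or in DKO against Rab30L-/- by edgeR. At an unadjusted p under 0.05 there was 1 in each, beside 35.7% and 41.6% of all genes. The summed level of the stellate markers was 239.5 to 265 CPM in Cpt2L-/- and 246 to 285.5 CPM in DKO, against 134 to 250.5 CPM in ff;ff and 223 to 245.5 CPM in Rab30L-/-. Of 5 sinusoidal endothelial markers 1 was lower in Cpt2L-/- than in ff;ff, beside 11.9% of all genes. In DKO 1 was higher than in Rab30L-/-, beside 14.9% of all genes. Of 5 bile duct markers 1 was lower in each comparison, beside 11.9% and 15.8% of all genes. The summed level of the bile duct markers was 9.57 to 24.0 CPM in Cpt2L-/- and 11.97 to 20.9 CPM in DKO, against 15.3 to 31.9 CPM in ff;ff and 17.9 to 32.7 CPM in Rab30L-/-. The 4 pancreas markers summed to at most 2.20 CPM in any library.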
